A study of Mus musculus with 12 samples.

Results

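The genes described here are 10 genes used to recognise fibroblasts and related mesenchymal cells by something other than the collagens and other matrix they make, examined in macrophages sorted out of mouse pancreatic tumours. They were taken as every non-control probe whose gene name on the array was Pdgfra, Pdgfrb, Thy1, Fap, Pdpn, Acta2, Tagln, Prrx1, Twist1 or Tcf21, which gave 12 probes of the 39429 on the array. Of the 10 genes, 9 passed the filter on dim values and are among the 20370 genes and features tested, and Tcf21 did not. The 12 samples are 6 of tumour macrophages labelled YFP+ and 6 labelled YFP-, each read by 1 array. All came from pancreas tumours of female mice of strain C57/B6 aged 8 to 10 weeks, in which tumours had been implanted, with no treatment named for either group. Cells went from the sorter straight into lysis buffer, and the RNA was amplified before it was labelled. The genotype of these mice is not provided. The series names wild-type mice, KPC mice and mice carrying FLT3-CRE and LSL-YFP among its sources. In the last of these the Cre recombinase is driven from Flt3, a receptor of blood progenitors, so that YFP would mark descendants of such progenitors; that YFP has this meaning in the 12 samples rests on the series' own description. The question put to these genes was whether fibroblast RNA differed between YFP+ and YFP- samples.

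As background, platelet-derived growth factors (PDGFs) are secreted proteins that act through the receptor tyrosine kinases Pdgfra and Pdgfrb, which fibroblasts and pericytes carry on their surface. Fibroblasts of tumours often take on a contractile state in which the actin Acta2 and the actin-binding protein Tagln are made, and the transcription factors Prrx1, Twist1 and Tcf21 act in mesenchymal cells during development and in scarring. Several of the surface markers are not restricted to fibroblasts. Thy1 is also carried by mouse T cells, Pdpn also by lymphatic endothelium and by macrophages in inflamed tissue, and Fap has been described in some tumour macrophages of mice.

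Because each probe reads a single stretch of transcript, the probes behind the results are shown here as the array's annotation gives them, 5′ to 3′. The first pair are the beginnings of both Prrx1 probes, which lie on the minus strand of chromosome 1 in mouse build mm9, at chr1:165175375-165175434 and chr1:165185408-165185467, with 9973 bases between them. They are shown because only the first was above background on any array. The probe of Tcf21, at chr10:22537563-22537622, is shown whole because Tcf21 is the only gene of the 10 whose best probe was not above background on any YFP+ array. No capitals are used in these 3, and the number in each line is the base count shown.
Prrx1, measured probe, 30 of 60 bases: cacgtgggaggttaaattaaaccagaagta
Prrx1, dim probe, 30 of 60 bases: tcaagctagtacctcacatgagatattcat
Tcf21, all 60 bases: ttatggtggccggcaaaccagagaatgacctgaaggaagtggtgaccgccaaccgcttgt

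The 2 Pdpn probes differed in the sign of their small differences, and they lie 1688 bases apart. One, at chr4:142859087-142859146 on the minus strand, is free of stop codons in its first reading frame up to a final stop codon, shown in capitals. The other, at chr4:142857339-142857398, holds the letters AATAAA, the usual signal for the end of a transcript, also in capitals. AATAAA was likewise present in the probes of Thy1 (chr9:43856591-43856650), Fap (chr2:62339001-62339060) and Twist1 (chr12:34644411-34644470). A match of these letters alone does not show that a transcript ends there.
Pdpn, probe ending in the stop codon, all 60 bases: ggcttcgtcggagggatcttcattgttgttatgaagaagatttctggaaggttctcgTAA
Pdpn, probe with the end signal, 30 of 60 bases: gacatcttttcaAATAAAacctgattgtgt
Thy1, 30 of 60 bases: aggaaagaaaactgcacAATAAAaccaagc
Fap, 30 of 60 bases: ccgggtagcggaAATAAAgtcagatgctca
Twist1, 30 of 60 bases: aacacctttagaAATAAAaacgctgggatc

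The letters AATAAA were searched on the strand as printed and occurred in 4 of the 12 probes of these genes and in 12.6% of all 39429 probes. With the other strand counted as well, 4 of the 12 and 16.2% of all probes held them. The probe of Pdgfra lies at chr5:75593888-75593947, and those of the contractile genes at chr19:34316060-34316119 (Acta2) and chr9:45738097-45738156 (Tagln). No mm9 gene annotation was used here, so exons and untranslated regions are not assigned.

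All values below are log2 processed signals after subtraction of the array's 75th percentile, so that 0 is the level of that percentile and lower numbers are dimmer. A difference is YFP+ minus YFP-, its error is the moderated standard error of limma (SE), and a gene was called where its adjusted p (Benjamini-Hochberg over all genes tested) was under 0.05. The 75th percentile was 3252 to 3913 units of signal on YFP+ arrays and 2100 to 3357 on YFP- arrays, so the YFP+ arrays were on the whole brighter. Among YFP- arrays only replicate 1 lay in the YFP+ range, so a fit with array brightness as a covariate can hardly separate brightness from group. All 13 macrophage markers examined, among them Csf1r, Adgre1 and Cd68, were above background on all 12 arrays, and limma called 0 of them, with 0 at an unadjusted p under 0.05. Their summed signal was 199 to 334 times the 75th percentile on YFP+ arrays and 221 to 371 times on YFP- arrays. On this scale dim probes lay lower on the brighter YFP+ arrays. Over the 6827 probes that were above background on no array the median difference was -0.48, against -0.02 over the 18531 probes above background on every array. This touches Pdgfra, Pdgfrb, Prrx1, Twist1 and Tcf21, which were dim on many arrays. Centring arrays on their medians instead moved the median of all genes by 0.22. The labels do not say whether the 6 samples of a group came from separate animals, so the p-values measure the spread between these samples, part of which may be technical.

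Prrx1 was the only one of these genes called, and it was 10.96-fold lower in YFP+ samples. That size is a description, since 5 of its 6 YFP+ values were not above background, and the call was lost with array brightness or the replicate number in the fit. The other genes fell into 3 kinds. Tcf21 and Pdgfra, like Prrx1, were above background mainly on YFP- arrays. Thy1 and Acta2 were measured on every array and averaged 3.05-fold and 3.15-fold lower in YFP+ samples without passing the test. Pdpn, Tagln, Fap and Twist1 had differences well within the spread of their arrays, and Pdgfrb varied so widely in both groups that its interval spanned 0. Of the 9 tested, 1 was called lower and 0 were called higher in YFP+ samples, beside 1.4% of all 20370 genes called lower (285 genes) and 0.334% called higher (68 genes). At an unadjusted p under 0.05, 4 of the 9 were lower (Prrx1, Pdgfra, Thy1 and Acta2), beside 7.44% of all genes. The median difference of the 9 was -1.61, against -0.03 for all genes tested, and it was -0.45 over the 5 that were above background on all 12 arrays. The plot of the 10 genes on each array shows which values were above background.

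**Figure D1:**
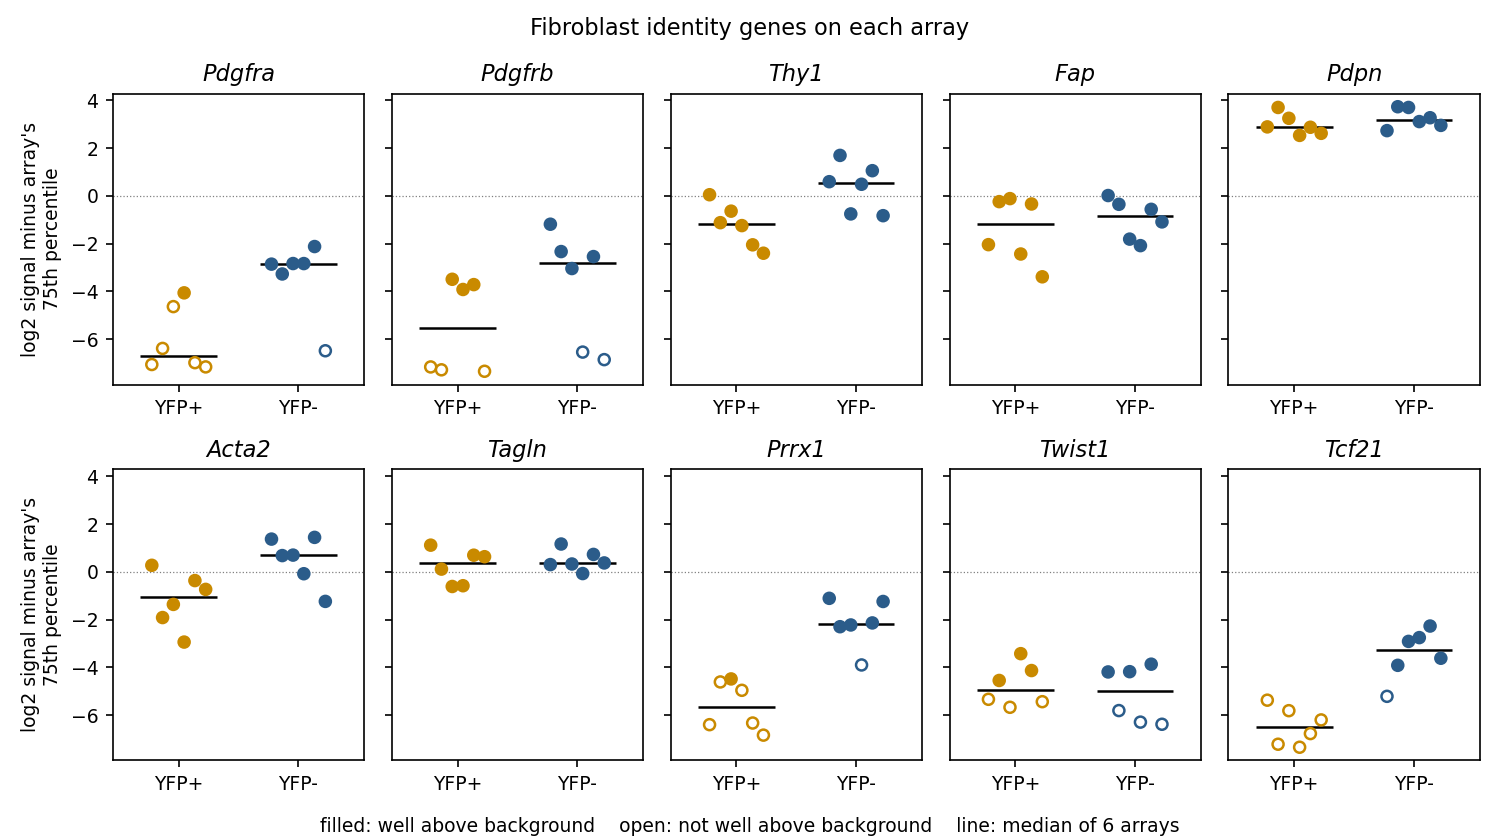
Each point is 1 array, with log2 signal minus the array's 75th percentile on the y axis, YFP+ left and YFP- right for each of the 10 genes, and the median of 6 arrays as a line. Open points were not well above background: the YFP+ points of Prrx1 and Tcf21 lie below every YFP- point, while Pdpn and Tagln are filled and overlapping in both groups.

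Among the receptors, Pdgfra, the receptor alpha that marks most tissue fibroblasts, ranged over -7.16, -6.69 and -4.06 (lowest, median, highest) in YFP+ samples and -6.49, -2.85 and -2.12 in YFP- samples. It was above background on 1 of 6 YFP+ arrays and on 5 of 6 YFP- arrays. The groups overlapped through a single array, YFP- replicate 6, which at -6.49 was as dim as the YFP+ arrays, while the other YFP- arrays lay between -3.27 and -2.12. The difference was -2.65 (SE 0.77, 95% interval -4.33 to -0.97) with an adjusted p of 0.137 from limma, so it was not called. Without YFP- replicate 6 it was -3.27 with an adjusted p of 0.0183. With all arrays kept it was also called with normexp background correction (-1.05, adjusted p 0.0399) and with dim values at the array floor (-1.74, adjusted p 0.0219).

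The Pdgfra probe is printed on 10 spots of each array, which separates the error of a spot from that between arrays. The SD between spots of 1 array had a median of 0.23 on the log2 scale in YFP+ arrays and 0.17 in YFP- arrays. Between arrays the SD was 1.36 in YFP+ samples and 1.56 in YFP- samples, several times as large. The SD of YFP- samples includes the single dim array, replicate 6. Of the spots used, 15 of 58 were above background in YFP+ samples, 10 of them on replicate 4 and 5 on replicate 3. In YFP- samples 46 of 56 were, with 0 of 10 on replicate 6. These counts follow a few arrays, since spots of 1 array are not separate samples. Most of the spread of Pdgfra was thus between arrays and little of it between spots.

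Pdgfrb, the receptor beta of pericytes and activated fibroblasts, ranged over -7.35, -5.54 and -3.49 in YFP+ samples and -6.86, -2.79 and -1.18 in YFP- samples. It was above background on 3 of 6 YFP+ arrays and 4 of 6 YFP- arrays, so each group split into bright and dim arrays. YFP- replicates 4 and 6 lay within the range of the YFP+ arrays, and the other YFP- arrays lay above it. The difference of -1.74 (SE 1.14) was not called (adjusted p 0.643), with a 95% interval of -4.21 to 0.73.

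The ligands of these receptors were measured without such limits. Pdgfa, Pdgfb and Pdgfc were above background on every array, and limma called 0 of the 3 ligands, with 0 at an unadjusted p under 0.05. Pdgfc, a ligand of receptor alpha, averaged 0.05 ± 0.25 in YFP+ samples and 0.49 ± 0.36 in YFP- samples (SD, n = 6 each), a difference of -0.44 (95% interval -0.89 to 0.02). Pdgfa differed by -0.06 (-0.71 to 0.58) and Pdgfb by 0.04 (-0.53 to 0.62). Their median difference was -0.06, and 0.15 with median centring. Pdgfd did not pass the filter on dim values.

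The surface proteins Thy1, Fap and Pdpn were above background on all 12 arrays. Thy1, a lipid-anchored glycoprotein, ranged over -2.40, -1.18 and 0.05 in YFP+ samples and -0.83, 0.54 and 1.70 in YFP- samples. YFP+ replicates 1 and 3 lay within the range of the YFP- arrays, and YFP- replicates 3 and 6 fell among the YFP+ arrays. The difference was -1.61 (SE 0.51, 95% interval -2.72 to -0.50) with an adjusted p of 0.189, so it was not called. T cells also carry Thy1, and the part of T cells in its signal was not tested. Of 7 T cell markers tested limma called 0 (0 at an unadjusted p under 0.05). Their median difference was 0.52, with 6 differences positive and 1 negative. The summed signal of the 10 T cell markers was 1.13 to 3.05 times the 75th percentile on YFP+ arrays and 1.22 to 2.20 times on YFP- arrays.

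Fap, a serine protease of activated stroma, ranged over -3.39, -1.19 and -0.11 in YFP+ samples and -2.08, -0.82 and 0.02 in YFP- samples. The groups overlapped over most of their range, with YFP+ replicate 6 the lowest of the 12 arrays. The difference was -0.45 (95% interval -1.77 to 0.88, adjusted p 0.872), an interval that reaches a level 3.41-fold lower in YFP+ samples.

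Pdpn, a mucin-type glycoprotein of the cell surface, was bright in both groups. Its brighter probe, the one with the end signal, ranged over 2.54, 2.89 and 3.71 in YFP+ samples and 2.74, 3.20 and 3.74 in YFP- samples. The 2 ranges coincided almost fully. The difference was -0.27 (SE 0.26, 95% interval -0.83 to 0.28, adjusted p 0.785), an interval that reaches no further than 1.77-fold lower in YFP+ samples. The probe that ends in the stop codon ranged over 1.52, 1.96 and 3.14 in YFP+ samples and 1.23, 1.79 and 2.83 in YFP- samples. Its difference had the other sign, 0.25 (95% interval -0.49 to 1.0), and neither probe was called. Lymphatic endothelium carries Pdpn too, but Prox1, the lymphatic marker of the endothelial list, did not pass the filter on dim values. Of the 10 endothelial markers tested limma called 0 (0 at an unadjusted p under 0.05). Those 10 do not single out lymphatic endothelium, so its part in the Pdpn signal was not tested. The summed signal of the 12 endothelial genes was 1.97 to 2.83 times the 75th percentile on YFP+ arrays and 2.08 to 3.5 times on YFP- arrays.

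The contractile genes Acta2 and Tagln were above background on every array. Acta2, smooth muscle actin, ranged over -2.94, -1.05 and 0.27 in YFP+ samples and -1.24, 0.69 and 1.44 in YFP- samples. YFP- replicate 6 was again the lowest of its group. It and YFP- replicate 4 lay within the range of the YFP+ arrays, and YFP+ replicates 1, 5 and 6 lay within that of the YFP- arrays. The difference was -1.66 (SE 0.58, 95% interval -2.91 to -0.40) and was not called (adjusted p 0.252). Its 10 spots agreed closely, with a median SD between spots of 0.06 in YFP+ arrays and 0.11 in YFP- arrays, against SDs between arrays of 1.15 in YFP+ samples and 1.01 in YFP- samples.

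Tagln, also called transgelin, which binds actin in smooth muscle and activated fibroblasts, ranged over -0.61, 0.38 and 1.12 in YFP+ samples and -0.07, 0.35 and 1.17 in YFP- samples. The medians were almost equal. YFP+ replicates 3 and 4 lay below every YFP- array, and the other YFP+ arrays lay within the YFP- range. The difference was -0.24 (95% interval -0.97 to 0.48, adjusted p 0.873), and the interval reaches 1.95-fold lower in YFP+ samples.

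Other genes of the contractile apparatus were read for comparison. Of 11 contractile and smooth muscle genes tested, 2 were called lower in YFP+ samples and 0 higher, beside 1.4% and 0.334% of all genes. Their median difference was -0.22, and -0.004 with median centring, with 7 differences negative and 4 positive. Cald1, caldesmon, which regulates actin and myosin, fell by 3.55 on the log2 scale (SE 0.74, adjusted p 0.0300), and Smtn, smoothelin, fell by 1.38 (SE 0.31, adjusted p 0.0484). Cnn1 and Myl9, both muscle contractile proteins, differed by -1.14 and -0.90 and were not called. Cald1, Smtn, Cnn1 and Myl9 are named because they had the smallest p, and all the positive differences lay in genes not named. Among 6 pericyte markers tested, Cspg4 (the NG2 proteoglycan) was called, lower by 5.41-fold with a difference of -2.44 (SE 0.45, adjusted p 0.0161). Of the other pericyte markers, Abcc9 differed by -1.40, Notch3 by -1.73 and Mcam by -0.56, none of them called. Of the 6 pericyte markers tested, 5 had a negative difference and 1 a positive one.

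Among the transcription factors, Prrx1, a homeobox factor of mesenchymal cells, ranged over -6.84, -5.65 and -4.49 in YFP+ samples and -3.90, -2.18 and -1.11 in YFP- samples. Every YFP+ array was below every YFP- array, which was so for 1.42% of all genes tested (289 of 20370). It was above background on 1 of 6 YFP+ arrays, replicate 3, and on 5 of 6 YFP- arrays, all but replicate 4. The difference was -3.45 (SE 0.55, 95% interval -4.64 to -2.27) with an adjusted p of 0.00631, or 10.96-fold lower in YFP+ samples with an interval of 4.82 to 24.9. Since 5 of the 6 YFP+ values were not above background, the size depends on how dim values are treated. With dim values set to the lowest signal above background on their array the difference was -2.74 (adjusted p 0.00234), and with normexp background correction it was -1.52 (adjusted p 0.00450). With the brightness of the array as a covariate it was -4.32 and no longer called (SE 0.96, adjusted p 0.178), in a fit that called only 9 genes lower in all. Brightness largely followed group, so that fit cannot tell the parts of the 2 well apart. The sample titles share 6 numbers across the groups, and the labels do not say whether equal numbers mean the same animal. With that replicate number as a block the difference of Prrx1 was again -3.45 and was not called (SE 0.65, adjusted p 0.0567).

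The second Prrx1 probe was above background on 0 of 12 arrays. Its values were -7.46 to -6.57 in YFP+ samples and -7.06 to -6.13 in YFP- samples, so no fold is given for it. Its difference of -0.53 was close to the median of -0.48 over the probes that were above background on no array. The array's annotation assigns the 2 probes to different RefSeq transcripts of Prrx1, so they may not read the same transcript. The call for Prrx1 therefore comes from 1 probe.

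The genes whose pattern over the 12 arrays was nearest to that of Prrx1, by the root-mean-square difference of values centred on each gene's mean, were Unc5b (0.73 on the log2 scale), a netrin receptor, Rdh10 (0.76), a retinol dehydrogenase, and Mall (0.77). Prrx1 itself varied by a root mean square of 1.96 around its mean. All 3 were called lower in YFP+ samples, with differences of -3.62 for Unc5b, -3.14 for Rdh10 and -2.51 for Mall, and adjusted p-values of 0.000465 for Unc5b, 0.000319 for Rdh10 and 0.00368 for Mall. They were picked for a pattern like that of Prrx1 on these same arrays, so their differences and calls follow from that choice. Their nearness describes these arrays alone.

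Tcf21, a basic helix-loop-helix factor of fibroblast precursors, ranged over -7.35, -6.49 and -5.38 in YFP+ samples and -5.22, -3.27 and -2.27 in YFP- samples. It was above background on 0 of 6 YFP+ arrays and 5 of 6 YFP- arrays, 1 array short of the 6 that the filter requires. The groups did not overlap, although the dimmest YFP- array, replicate 1, at -5.22, was only a little above the brightest YFP+ array, also replicate 1, at -5.38. Among all 31110 genes and features without a filter, 5.99% had every YFP+ value below every YFP- value (1864).

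In the fit without a filter, which called 0.858% of all genes lower in YFP+ samples (267), the difference of Tcf21 was -3.01 (SE 0.50, adjusted p 0.0149). Because the YFP+ side is not above background, that fold is a description. On this scale Tcf21 averaged at least 3.10-fold lower in YFP+ samples, taken against each array's lowest signal above background or the probe's own where that is higher. That bound belongs to this scale and background treatment, and the normexp difference given next was smaller. The call was lost with normexp background correction (-1.06, adjusted p 0.0874), with array brightness as a covariate (-1.97, adjusted p 0.413) and with the replicate number as a block (-3.01, adjusted p 0.1003).

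Twist1, a basic helix-loop-helix factor of mesenchyme, ranged over -5.68, -4.95 and -3.43 in YFP+ samples and -6.39, -5.00 and -3.87 in YFP- samples. It was above background on 3 of 6 arrays of each group, and the medians were nearly equal. Its difference, 0.36 (95% interval -0.84 to 1.56, adjusted p 0.888), was the only positive one of the 9 tested, and it turned negative with normexp correction (-0.17) and with dim values at the array floor (-0.25). Of 14 other mesenchymal transcription factors, such as Snai1, Zeb1 and Gli1, only 4 passed the filter, and limma called 0 (0 at an unadjusted p under 0.05). Osr1 differed by -0.48, Zeb1 by 0.64, Nkx3-2 by -0.47 and Gli1 by -0.10.

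**Figure D2:**
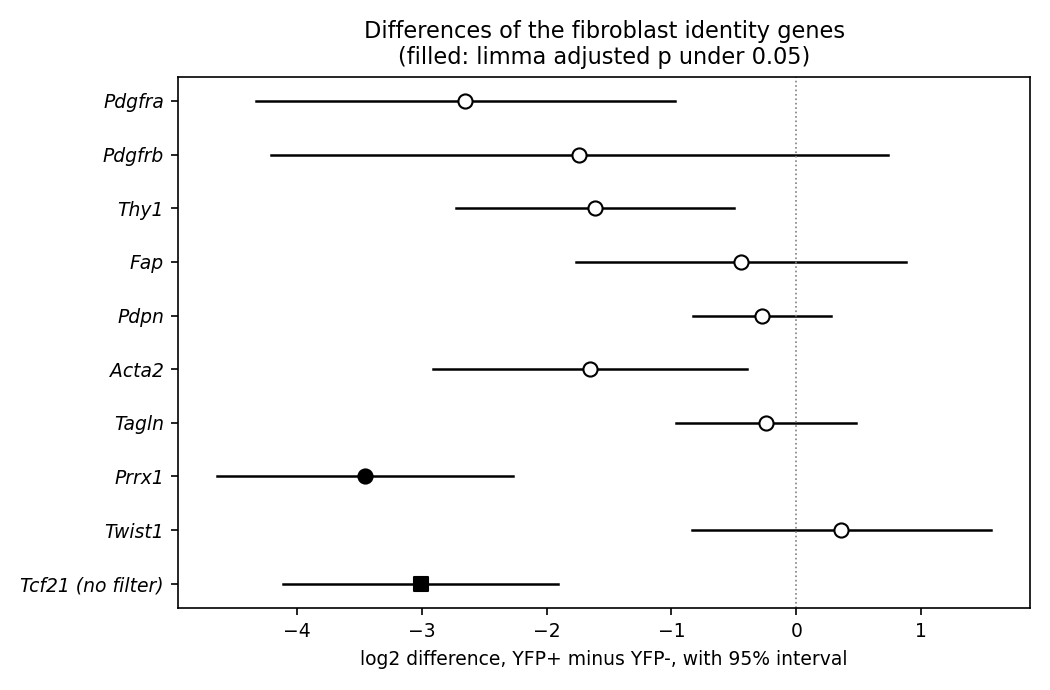
The log2 difference of each gene, YFP+ minus YFP-, is on the x axis with its 95% interval, and filled symbols were called by limma. Prrx1 at -3.45 is the only tested gene called, and Tcf21 at -3.01 is shown as a square from the fit without a filter.

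Counted by detection alone, Pdgfra, Prrx1 and Tcf21 were above background on at least 4 more YFP- than YFP+ arrays. That was so for 3 of the 10 genes and for 0.582% of all 31110 genes and features (181). Pdgfra met this cut only because YFP+ replicate 3, with 5 of 10 spots above background, was counted as not above. At least 4 more YFP+ than YFP- arrays were found for 0 of the 10 genes and 0.723% of all (225). The other 7 genes differed by at most 1 array between the groups. The 5 genes Thy1, Fap, Pdpn, Acta2 and Tagln, all of them surface or contractile genes, were above background on all 12 arrays, and none of the receptors or transcription factors was.

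The arrays lay on 3 slides with 2 YFP+ and 2 YFP- arrays on each, which allows the comparison to be repeated within slides. Prrx1 differed by -3.99, -4.15 and -2.22 on slides 1 to 3, and Tcf21 by -3.45, -2.98 and -2.60. Pdgfra differed by -2.12, -4.33 and -1.50. These genes were lower in YFP+ samples on all 3 slides, and with 2 arrays a group none was called within a slide. Thy1 (-0.97, -2.38 and -1.48) and Acta2 (-1.06, -1.11 and -2.80) also kept 1 sign, as did the smaller differences of Fap (-0.37, -0.73 and -0.24) and of the brighter Pdpn probe (-0.17, -0.62 and -0.03). Pdgfrb did not, with -2.37, -3.0 and 0.16, and Tagln had 0.024, -0.04 and -0.71. Twist1 was positive on each slide, at 0.29, 0.10 and 0.69.

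**Figure D3:**
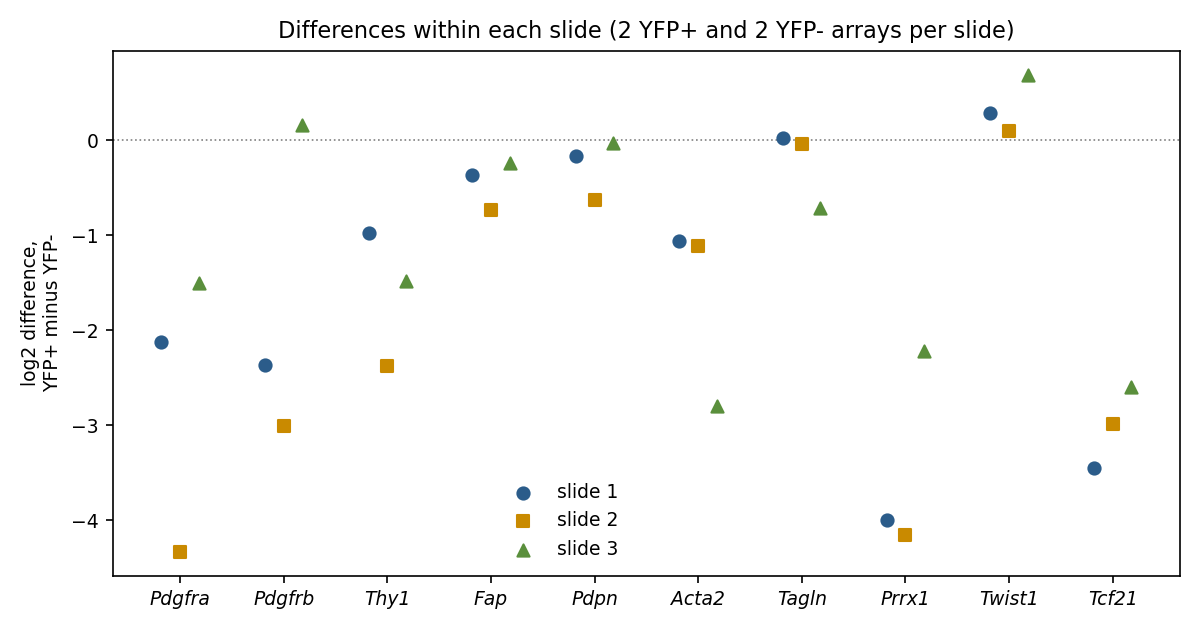
The log2 difference, YFP+ minus YFP-, of each gene is on the y axis, taken within each of 3 slides from the means of 2 YFP+ and 2 YFP- arrays. Prrx1, Tcf21, Pdgfra, Thy1, Acta2, Fap and Pdpn lie below 0 on all 3 slides, Pdgfrb and Tagln cross it, and Twist1 lies above it.

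The 10 genes were set beside other genes of fibroblasts and of other cells the sort could hold. These lists were chosen with earlier results of these data known, so the counts called in them are a description. Of 12 structural matrix genes tested, 11 were called lower in YFP+ samples, beside 1.4% of all genes tested. Their median difference was -2.11. Bgn (biglycan) differed by -2.43 (SE 0.24, adjusted p 0.000320), Fbln2 by -2.37, Postn (periostin) by -2.53 and Col6a1 by -2.52, and all of these were above background on every array. Matrix signal summed to 37.0 to 87.6 times the 75th percentile on YFP+ arrays and 105 to 228 times on YFP- arrays, without overlap. Only Dpt of the 14 matrix genes was above background on no array. In bulk samples, fewer cells of a type and less RNA per cell cannot be told apart.

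Of the 17 fibroblast secreted and surface genes tested outside the structural matrix, 1 was called lower and 0 higher, with a median difference of -0.19 that became 0.03 with median centring. Islr, a secreted protein of mesenchymal cells, was the gene called (adjusted p 0.000165 from limma). It was above background on 0 of 6 YFP+ arrays and 6 of 6 YFP- arrays, and on this scale averaged at least 6.37-fold lower in YFP+ samples. Ngfr, a surface receptor that pancreatic stellate cells also carry, ran the other way, at -0.47 ± 0.79 in YFP+ samples and -4.49 ± 2.49 in YFP- samples (SD, n = 6 each), and was not called (adjusted p 0.0633). Hgf and Igf1, both growth factors, differed by 0.77 and -0.89 and were not called. The growth factors Fgf7 and Fgf10 were above background on no array.

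Markers of some cells other than fibroblasts were also lower on the YFP+ arrays. Of 10 epithelial markers tested, 5 were called lower in YFP+ samples and 0 higher, beside 1.4% and 0.334% of all genes. Their median difference was -1.95, and this list too was chosen with earlier results known. The keratins Krt8, Krt18 and Krt19 differed by -2.59, -2.11 and -2.94, and the mucin Muc1 by -2.31, all of them called. The summed signal of the 10 epithelial markers was 5.0 to 11.6 times the 75th percentile on YFP+ arrays and 15.7 to 42.5 times on YFP- arrays. Of 5 red cell genes tested, 3 were called lower (Hbb-b2, Hbb-b1 and Hba-a1), with sums of 3.83 to 27.4 times on YFP+ arrays and 28.5 to 93.5 times on YFP- arrays; Alas2 differed by -2.20 and was not called. The 2 mesothelial markers tested, Msln and Wt1, differed by -3.15 (adjusted p 0.0521) and -2.33 and were not called, although both had an unadjusted p under 0.05, and Gpm6a was above background on no array. The part of epithelial, red cell or mesothelial RNA in the lower Prrx1, Tcf21 and Pdgfra signal of YFP+ samples was not tested.

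**Figure D4:**
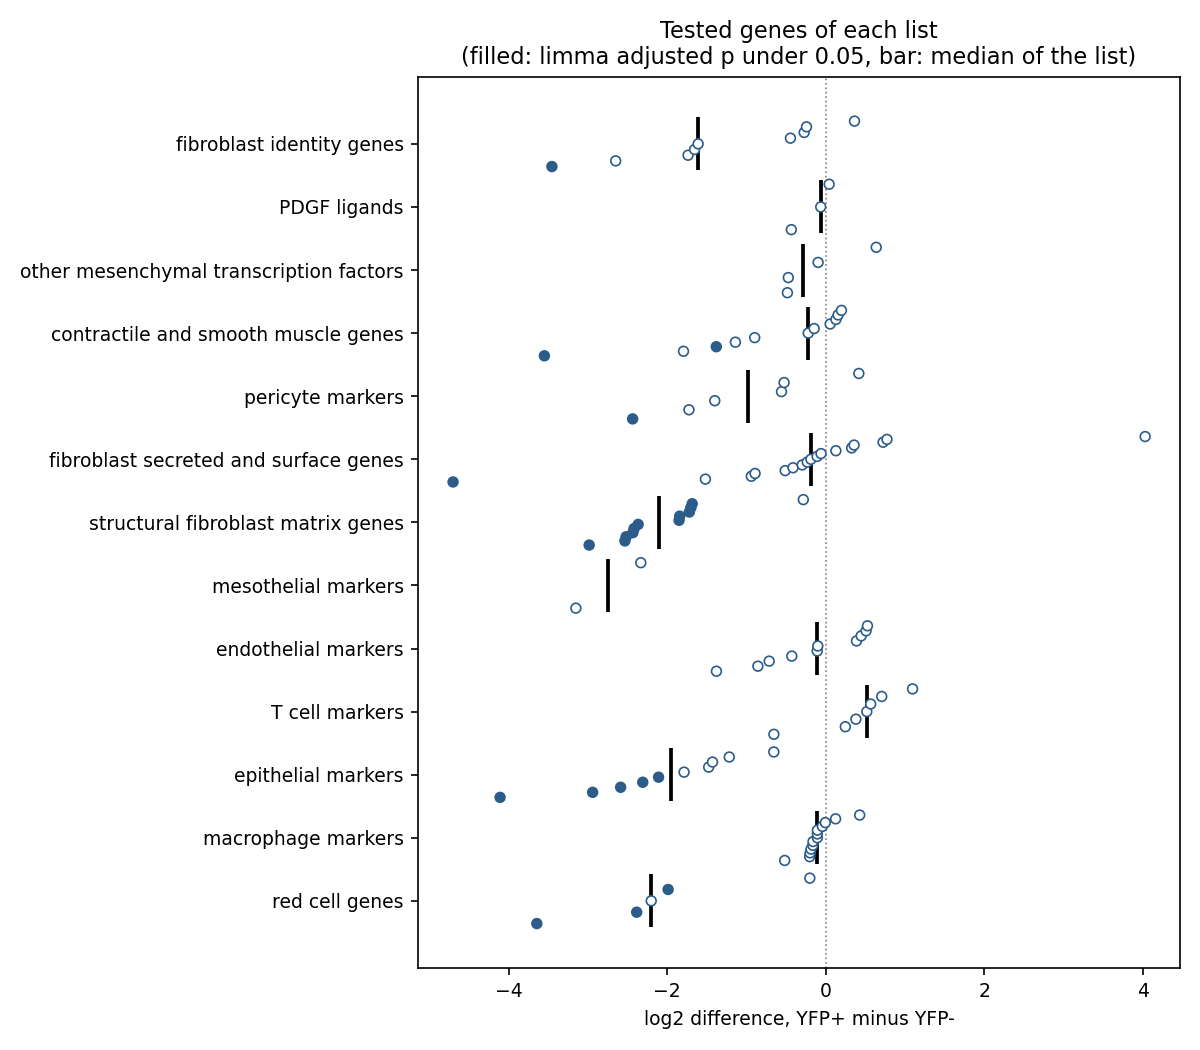
Each point is a tested gene, with its log2 difference, YFP+ minus YFP-, on the x axis and its list on the y axis. Filled points were called by limma and the bar is the list's median, which is -1.61 for the fibroblast identity genes, -2.11 for structural matrix genes, -1.95 for epithelial markers and -0.11 for macrophage markers (0.11 with median centring).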

How the data were processed

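The deposited intensity values are the authors' red-channel scanner output, made per the file headers with Agilent Feature Extraction 11.5.1.1, which subtracts background and leaves arrays unscaled. A second deposited table holds log2 values of the authors, with a median of 8.83 in each column and ranks that match the scanner signals. It served as an alternative, and 0 of its columns went unused. Control spots (1377 per array) and 138 to 210 spots per array with outlier flags were dropped. Saturated spots numbered 0. Spots of 1 probe were averaged, then log2 was taken and the 75th percentile of the array subtracted. A probe counted as above background on an array where more of its spots were well above background than were not. A probe passed the filter when well above background on 6 or more of the 12 arrays (25434 probes), and the brightest passing probe stood for its gene (20370 genes and features). Names were updated through RefSeq accessions, which 28309 probes matched.

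The test was limma 3.58.1 (R 4.3.3; lmFit, then eBayes, with group as factor) and Benjamini-Hochberg adjustment. Summed signals add linear signals over the genes of a list. The test was checked on simulated data. All 10 members and all PDGF ligands are named, and from each other list up to 4 genes with the smallest p. For each member called, the 3 tested genes nearest in pattern are named. The members and gene lists were chosen with earlier results of these data known. The floor on dim values, and the refits of Tcf21 without a filter, were chosen after seeing the data. The cut of at least 4 arrays in the count by detection was not part of the planned design. Other settings were the replicate number or slide as a block, normexp with an offset of 50, quantile normalization, median centring, the deposited table, other filters, the mean of probes, a variance trend, array brightness, and leaving out each array. Tables and plots used scipy 1.17.1, numpy 2.4.6, pandas 2.3.3, matplotlib 3.10.9 and Python 3.11.15. The number of arrays limits precision.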

Additional observations from a re-analysis of the deposited data

Results flagged for a closer look

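YFP- replicate 6 stood apart from the other 5 YFP- samples for Pdgfra. Its value of -6.49 was not above background, while the nearest of the others was at -3.27, and the gap is 0.74 of the range of the group, above Dixon's 95% critical value for 6 samples. This was 1 of 20 groups examined, and chance flags about 1 in 20 groups.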

How the results depend on the processing

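Of 264 refits of single members, 244 kept direction and side of the threshold. Prrx1 lost its call with the replicate block (-3.45, adjusted p 0.0567) and with array brightness as a covariate (-4.32), and kept it without each array in turn (-3.80 to -3.21). Tcf21 in the fit without a filter lost its call with the replicate block (-3.01, adjusted p 0.1003), normexp (-1.06) and brightness (-1.97). Pdgfra gained one with normexp (-1.05), with dim values at the array floor (-1.74) and without YFP- replicate 6 (-3.27). With brightness Pdpn (0.44) and Tagln (0.36) changed sign, and Twist1 did with normexp (-0.17) and the floor (-0.25). The members called numbered 0 with the replicate block, with brightness and on genes above background on all 12 arrays, which leave out Prrx1, and 2 with normexp, the floor and no filter, and between 1 and 2 without each array. Their median was -0.45 over those above background on all 12 arrays, and -1.85 to -1.22 without each array. Genes lower in YFP+ samples numbered 441 with normexp, 426 with slide as a block, 9 with brightness and 206 to 294 without each array. Genes higher numbered 123 with slide as a block, 121 with median centring and 4 with brightness. They numbered 40 on genes above background on all 12 arrays and 37 to 84 without each array. The split moved to 121 higher and 228 lower with median centring. Same-numbered samples correlated at -0.30 to 0.37, over 0.1 in 4 of 6 pairs, with a median of 0.15 against -0.0089 for other pairs. Same-numbered pairs that shared a slide were at 0.28, 0.19 and 0.37, and those on different slides at -0.30, 0.11 and -0.13. Different-numbered pairs that shared a slide ran from 0.002 to 0.39. Not every same-numbered pair passed 0.1, and number and slide were not separated, so whether the numbers pair the samples is not settled. Each slide alone, with 2 arrays a group, called 0 genes in limma (1610 to 1848 at an unadjusted p under 0.05) and 0 members, so neither Prrx1 nor Tcf21 was called there. Slide 3 alone gave a median of the members of -0.71 and a Pdgfrb difference of 0.16, and slide 1 a Tagln difference of 0.024. The causes were not tested.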
